A study of Mus musculus with 6 samples.

Results

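The Ms4a genes encode small membrane proteins that cross the cell membrane 4 times, and CD20 of B cells is the best known of them. They were examined here in macrophages grown from mouse bone marrow. The members were 10 of the 46095 genes in the deposited count table, picked by symbol: Ms4a1, Ms4a4a, Ms4a4b, Ms4a4c, Ms4a4d, Ms4a6b, Ms4a6c, Ms4a6d, Ms4a7 and Ms4a14. The choice was made with the genotype comparison of these same libraries in view, so the genotype differences of the members are given as a description and are not evidence for it.

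RNA sequencing compared wild-type C57BL/6 mice (WT) with C57BL/6 mice lacking Cd226, which encodes the adhesion receptor CD226 (DNAM-1), both at 56 days of age. Marrow was cultured with M-CSF (20 ng/ml, 7 days), which drives macrophage differentiation, and every culture then received IFN-γ (20 ng/ml) with LPS (100 ng/ml) for 24 h, the classical stimulus for M1-type macrophages, so that unstimulated cells are not part of the comparison. Each genotype had 3 libraries, with 16838527 to 21658061 counts each. Whether replicates were separate mice or cultures is not given in the labels, and the tests measure only the spread between these libraries, which may be technical. Cd226 itself was close to the detection limit (5 to 23 counts per WT library and 8 to 11 per Cd226-/- library), so its counts did not check the genotype labels. The macrophage identity was checked on 12 markers, all of which were detected and tested. Their summed level was 18976 to 20933 CPM (counts per 1000000, with library sizes scaled by the TMM method) in WT and 20519 to 21195 in Cd226-/-. Most of that sum was Lyz2, which was not called and averaged 10640 CPM in WT and 11816 in Cd226-/-. Of the 12 markers 6 were called higher and 4 lower, beside 16.1% higher and 14.8% lower over all tested genes.

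In mice the family has expanded into a cluster of neighbouring genes. Ms4a1 encodes CD20. Human MS4A4A and MS4A7 mark macrophages, MS4A4A associates with the beta-glucan receptor dectin-1, and variants at the human cluster are linked to the level of soluble TREM2. Ms4a4b was described in T cells, where it restrains proliferation. Ms4a2 encodes the beta chain of the high-affinity IgE receptor of mast cells, and Ms4a3 marks granulocyte and monocyte progenitors.

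All 10 members lie within 355 kb of chromosome 19 (GRCm38, 11249679 to 11604804), 6 on the plus strand and 4 on the minus strand. All are protein-coding, and the counts are per whole gene. Within the family, Ms4a4c and Ms4a4b are neighbours on the plus strand, and so are Ms4a6c and Ms4a6b. Genes outside the family lie between them. These are the pseudogene Gm5511 (11438029 to 11438829) in the first pair and the protein-coding Gm8369 (11488955 to 11512577) in the second. The RefSeq promoter table of the same build held entries for 8 of the 10 members. The upstream parts of these 2 neighbouring pairs are shown because they resemble each other within a pair, while Ms4a4c and Ms4a4b did not change to the same extent. Each is the 250 bases before the annotated start, 5′ to 3′ on the plus strand, and capitals mark matches to GGAAGT, the core bound by ETS factors such as the macrophage factor PU.1, and to GAAANNGAA (N is any base), a pair of half-sites of the kind bound by interferon regulatory factors. They come from chr19:11443308-11443557 for Ms4a4b, chr19:11407411-11407660 for Ms4a4c, chr19:11518309-11518558 for Ms4a6b and chr19:11469118-11469367 for Ms4a6c. The start used for Ms4a4c lies inside the gene, which begins at 11404717, so its window is not upstream of the whole gene. The window of Ms4a6c reaches slightly past the first base of that gene at 11469353.
Ms4a4b: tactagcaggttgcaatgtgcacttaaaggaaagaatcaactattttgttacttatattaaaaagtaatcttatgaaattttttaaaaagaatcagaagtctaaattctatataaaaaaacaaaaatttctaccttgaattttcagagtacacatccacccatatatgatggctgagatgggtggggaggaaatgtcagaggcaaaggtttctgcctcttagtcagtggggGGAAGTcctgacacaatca
Ms4a4c: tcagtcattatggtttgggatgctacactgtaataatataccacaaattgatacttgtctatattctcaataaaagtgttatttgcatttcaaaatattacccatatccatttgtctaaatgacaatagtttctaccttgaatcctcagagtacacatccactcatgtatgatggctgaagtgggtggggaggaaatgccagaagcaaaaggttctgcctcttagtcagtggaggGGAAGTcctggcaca
Ms4a6b: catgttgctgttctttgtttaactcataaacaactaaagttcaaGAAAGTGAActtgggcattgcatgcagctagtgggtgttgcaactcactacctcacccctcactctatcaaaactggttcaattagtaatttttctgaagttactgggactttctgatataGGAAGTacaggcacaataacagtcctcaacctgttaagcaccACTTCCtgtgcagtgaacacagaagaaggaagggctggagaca
Ms4a6c: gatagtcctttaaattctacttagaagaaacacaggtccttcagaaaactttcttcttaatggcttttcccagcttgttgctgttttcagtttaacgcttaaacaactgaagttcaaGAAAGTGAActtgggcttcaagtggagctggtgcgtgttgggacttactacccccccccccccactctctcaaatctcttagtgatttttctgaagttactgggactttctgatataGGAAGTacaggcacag

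In the best local alignment, Ms4a4c and Ms4a4b shared a stretch of 128 alignment columns that was 89.1% identical and reached from -128 to -1 in Ms4a4c and from -131 to -5 in Ms4a4b, counted from the annotated start. Ms4a6c and Ms4a6b shared 182 columns at 83.5% identity, from -175 to -2 and from -248 to -71. Among the other pairs of the 36 formed by 9 member promoters, the longest alignment had 30 columns. The GAAANNGAA match lies in the shared stretch of Ms4a6b and Ms4a6c, starting at -206 and -133, and Ms4a7 was the other member with one. On either strand this motif occurs in 7.13% of the 32851 promoter entries cut to the same 250 bases. GGAAGT was present in 6 of the 8 members (19.7% of all entries), and starts at -15 in Ms4a4c, -19 in Ms4a4b and -16 in Ms4a6c. The longer PU.1 form GAGGAAGT, which contains GGAAGT (2.44% of entries), had no match in these windows. These are matches of letters in short windows and do not show binding.

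Summed over the 10 members, Ms4a transcripts made up 0.237% to 0.258% of all counts in the WT libraries and 0.304% to 0.326% in the Cd226-/- libraries, and the ranges did not overlap. By the edgeR quasi-likelihood test over all genes, with Benjamini-Hochberg adjusted p under 0.05 as the call, 7 members were higher and 1 lower in Cd226-/-, and 2 were not called. All 10 had passed the filter on low counts. Of all 13215 genes tested, 30.9% were called, 16.1% higher and 14.8% lower. The 3 Cd226-/- values lay above the 3 WT values for the same 7 members and below them for 1, and 44.4% of all tested genes had no overlap, 22.1% higher and 22.3% lower. The median log2 fold change (Cd226-/- over WT) was 0.34 over the members and -0.00449 over all tested genes. Scaling by total count alone kept the members' calls at 7 and 1, while the calls over all genes went from 2130 higher and 1956 lower to 1773 and 2764.

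**Figure D1:**
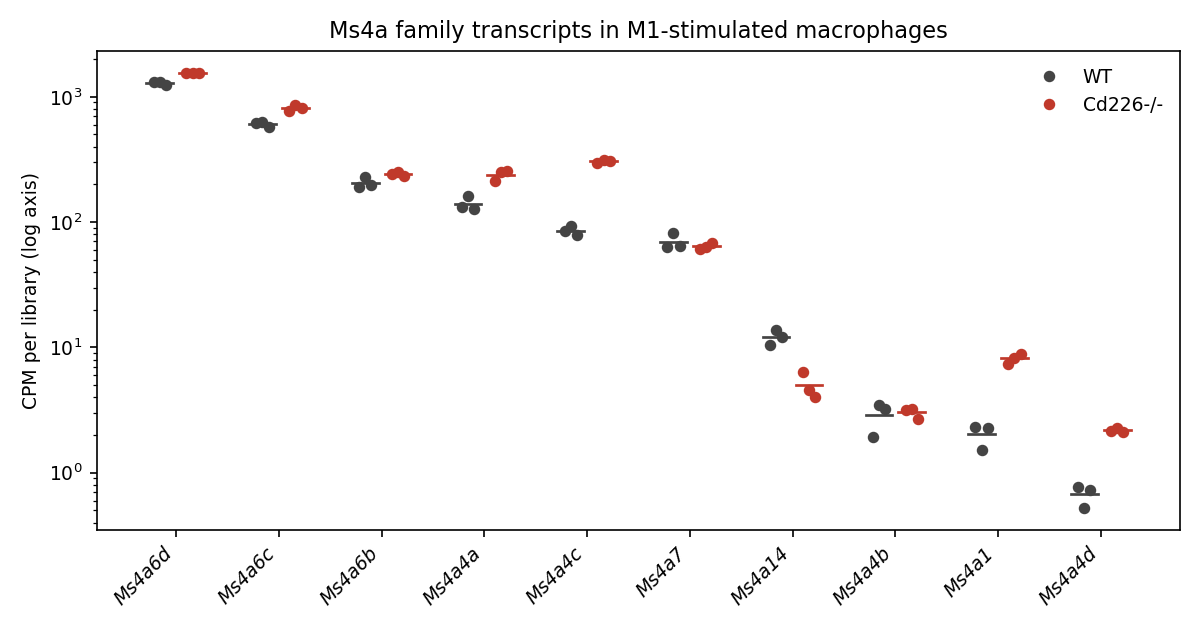
CPM of each Ms4a member in each of the 6 libraries on a log axis, WT in grey and Cd226-/- in red; points are libraries and lines are means of 3. The Cd226-/- points lie above the WT points for 7 members and below them for Ms4a14, and the groups overlap for Ms4a4b and Ms4a7.

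Of the members, Ms4a4c (11404717 to 11427246) rose 3.57-fold, with the smallest standard error relative to its change. In WT the reads numbered 1564, 1581 and 1736, and without Cd226 they numbered 5358, 5188 and 5660. All Cd226-/- libraries were far above all WT libraries, at 85.5 ± 6.93 CPM in WT against 305 ± 8.34 CPM without Cd226 (SD, n = 3). The log2 fold change was 1.84 ± 0.057 (SE). Its share of the members' summed counts went from 3.39% to 3.64% in WT to 9.36% to 9.52% in Cd226-/-.

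Ms4a4b (11443558 to 11463549), whose promoter resembles that of Ms4a4c, was scarce and was not called. Counts per library ran 35, 59 and 72 for WT, then 58, 54 and 49 for Cd226-/-, and the groups overlapped. The level was 2.87 ± 0.833 CPM in WT against 3.03 ± 0.317 CPM without Cd226 (SD, n = 3), with a log2 fold change of 0.07 ± 0.25 (SE). Without WT replicate 1, the lowest WT library, the value was -0.15. Within single libraries, which removes any scaling, there were 24.1 to 44.7 Ms4a4c counts for each Ms4a4b count in WT and 92.4 to 115.5 in Cd226-/-.

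Ms4a4a (11375488 to 11392915), the mouse gene named after the dectin-1 partner, rose 1.71-fold. The WT libraries held 2403, 2772 and 2832 counts, against 3884, 4166 and 4687 in the Cd226-/- libraries, with no overlap between genotypes. In CPM this was 140 ± 18.6 and 239 ± 22.3 (SD, n = 3), a log2 difference of 0.77 ± 0.10 (SE). Inside single libraries, for each Ms4a4a count there were 0.570 to 0.651 Ms4a4c counts in WT and 1.21 to 1.38 in Cd226-/-.

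Ms4a4d (11536794 to 11558466) had the fewest counts of the members in WT, with no correction for length. In WT the reads numbered 14, 9 and 16, and without Cd226 they numbered 39, 38 and 39. The Cd226-/- libraries were all higher, and the gene rose 3.21-fold (log2 fold change 1.68 ± 0.34 (SE)), from 0.672 ± 0.128 to 2.18 ± 0.0824 CPM (SD, n = 3). Counts this low carry a wide counting error.

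The Ms4a6 genes had the smallest changes among the members called higher. Ms4a6d (11586606 to 11604804), the most abundant member, alone held 52.1% to 54.6% of the members' counts in WT and 47.2% to 49.5% in Cd226-/-. Counts per library ran 24158, 22652 and 27683 for WT, then 28325, 26067 and 28316 for Cd226-/-. After scaling, the Cd226-/- libraries were all higher (1299 ± 41.2 CPM in WT against 1554 ± 11.5 CPM without Cd226 (SD, n = 3)), and the gene rose, with a log2 fold change of 0.26 ± 0.049 (SE).

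Ms4a6c (11469353 to 11487182) rose 1.34-fold. The WT libraries held 11193, 10761 and 12810 counts, against 13852, 14282 and 14955 in the Cd226-/- libraries, with every Cd226-/- library above every WT library. The means were 607 ± 25.2 and 811 ± 46.3 CPM (SD, n = 3), a log2 difference of 0.42 ± 0.053 (SE). Its share of the members' counts hardly moved, at 24.8% to 25.3% in WT and 24.2% to 25.9% in Cd226-/-.

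Ms4a6b (11518559 to 11530403) rose 1.17-fold, the smallest of the called changes. In WT the reads numbered 3485, 3947 and 4386, and without Cd226 they numbered 4392, 4168 and 4282. The scaled groups were close, with 206 ± 21.1 CPM in WT against 241 ± 8.33 CPM without Cd226 (SD, n = 3), and a log2 fold change of 0.23 ± 0.061 (SE). The call was lost without WT replicate 1 (log2 fold change 0.17) or WT replicate 3 (0.20). The ratio of Ms4a6c to Ms4a6b counts was 2.73 to 3.21 in WT and 3.15 to 3.49 in Cd226-/-, ranges that overlap. For the Ms4a6 pair, then, the ratio was not separated by genotype, while the ratio of Ms4a4c to Ms4a6b was 0.396 to 0.449 in WT and 1.22 to 1.32 in Cd226-/-.

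**Figure D2:**
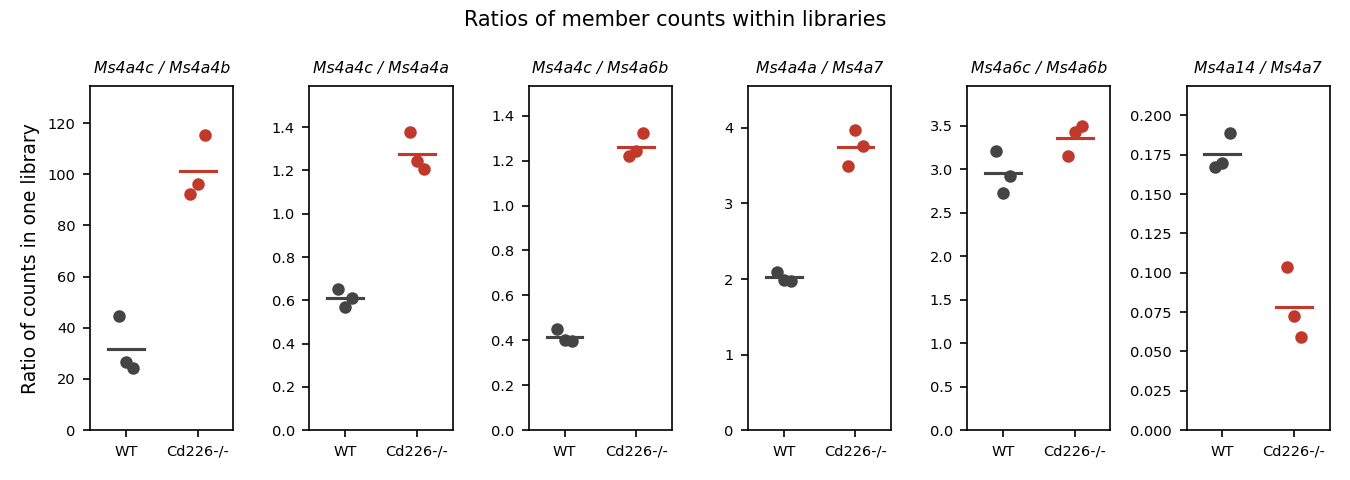
Ratios of counts of pairs of members inside each library, which need no scaling between libraries, for WT (grey) and Cd226-/- (red); points are libraries, lines are means and every axis starts at 0. The ratios of Ms4a4c to Ms4a4b, Ms4a4a and Ms4a6b and of Ms4a4a to Ms4a7 are higher in all Cd226-/- libraries, that of Ms4a14 to Ms4a7 is lower, and that of Ms4a6c to Ms4a6b overlaps.

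Ms4a7 (11321039 to 11336146), a macrophage marker, was not called. Counts per library ran 1146, 1394 and 1430 for WT, then 1109, 1050 and 1245 for Cd226-/-, and the groups overlapped at 69.6 ± 10.3 and 63.9 ± 3.45 CPM (SD, n = 3). The log2 fold change was -0.12 ± 0.088 (SE), and 0.0029 without WT replicate 2, the highest library. Relative to it, Ms4a4a counts were 1.98 to 2.10 times as many in WT and 3.50 to 3.97 times in Cd226-/-, so these macrophage members did not move together.

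Ms4a14 (11301249 to 11315877), the neighbour of Ms4a7, was the member that fell. The WT libraries held 192, 237 and 270 counts, against 115, 76 and 74 in the Cd226-/- libraries. All Cd226-/- libraries lay below all WT libraries, replicate 1 being the highest of them, and the level went from 12.2 ± 1.66 to 4.97 ± 1.21 CPM (SD, n = 3). The log2 fold change was -1.29 ± 0.16 (SE).

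Ms4a1 (11249679 to 11266149), encoding CD20, rose 3.99-fold from a very low level. In WT the reads numbered 42, 26 and 50, and without Cd226 they numbered 135, 137 and 163, with no overlap. The means were 2.03 ± 0.440 and 8.17 ± 0.717 CPM (SD, n = 3), and the log2 fold change was 2.00 ± 0.20 (SE).

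Most other B-cell transcripts that were tested moved with Ms4a1. Of 14 B-cell markers 10 were tested, and 9 rose, each by 1.91-fold or more, with none called lower. Over all tested genes 16.1% were called higher and 14.8% lower. Fcer2a, too scarce to be tested, had 7, 8 and 7 counts in WT but 4, 0 and 3 in Cd226-/-. Cd79a, a signalling chain of the B-cell receptor, went from 4.33 ± 0.712 to 10.6 ± 1.92 CPM (SD, n = 3; edgeR adjusted p = 4.99e-06). The summed level of the 14 markers was 25.2 to 29.2 CPM in WT and 50.7 to 66.9 in Cd226-/-. Ighm and Igkc, the constant regions of the immunoglobulin chains, were listed at 0 in all 6 libraries. As the annotation used for counting is not given, it is not known whether reads could be assigned to these rows. The 0 values are therefore not read as absence of the RNA. Per Cd22 count there were 0.299 to 0.463 Ms4a1 counts in WT and 0.649 to 0.753 in Cd226-/-, and per Cd79a count 0.394 to 0.575 and 0.731 to 0.882. Whether more B cells account for the level of Ms4a1 was not tested. In such bulk libraries, more cells of a type and more RNA per cell cannot be told apart.

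Several monocyte genes moved with Ms4a4c, to unlike extents. Of 7 monocyte markers 5 rose and none was called lower, beside 16.1% higher and 14.8% lower over all tested genes. The summed level of the 7 was 269 to 282 CPM in WT and 569 to 581 in Cd226-/-. Plac8 went from 91.3 to 178 CPM, while Vcan rose only 1.20-fold. Chil3 (1.08-fold) and F13a1 (0.87-fold) were not called. The monocyte antigen Ly6c2 went from 30.2 ± 0.744 to 205 ± 12.2 CPM (SD, n = 3), and the chemokine receptor Ccr2 from 9.77 ± 0.740 to 20.7 ± 2.20 CPM (adjusted p = 1.61e-07). Ly6c2 rose more than Ms4a4c, with 2.54 to 3.14 Ms4a4c counts for each Ly6c2 count in WT and 1.43 to 1.60 in Cd226-/-. The part of monocytes in the level of Ms4a4c was not tested.

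T- and NK-cell markers, given beside Ms4a4b, were scarce. The counts of called markers in this paragraph stand beside 16.1% higher and 14.8% lower over all tested genes. Of 15 markers 9 were tested and none was called by edgeR, and the summed level was 8.0 to 10.5 CPM in WT and 11.5 to 12.9 in Cd226-/-. Trac was listed at 0 in all libraries, with the same doubt as for Ighm and Igkc. Of 10 mast cell and basophil markers 9 were tested; 2 rose and 3 fell, with 81.8 to 93.4 CPM summed in WT and 79.8 to 82.3 in Cd226-/-, and Mcpt8 at 0. Of 10 neutrophil markers 2 were tested and none was called (49.4 to 62.7 and 57.8 to 64.7 CPM). Most of that sum was S100a8, which averaged 55.2 CPM in WT and 58.8 in Cd226-/-. Of 8 dendritic cell markers 5 were tested and 2 rose, Ccr7 and Batf3 (43.3 to 59.8 and 69.3 to 80.2 CPM). Here most of the sum was Ccr7, which averaged 43.4 CPM in WT and 63.6 in Cd226-/-.

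**Figure D3:**
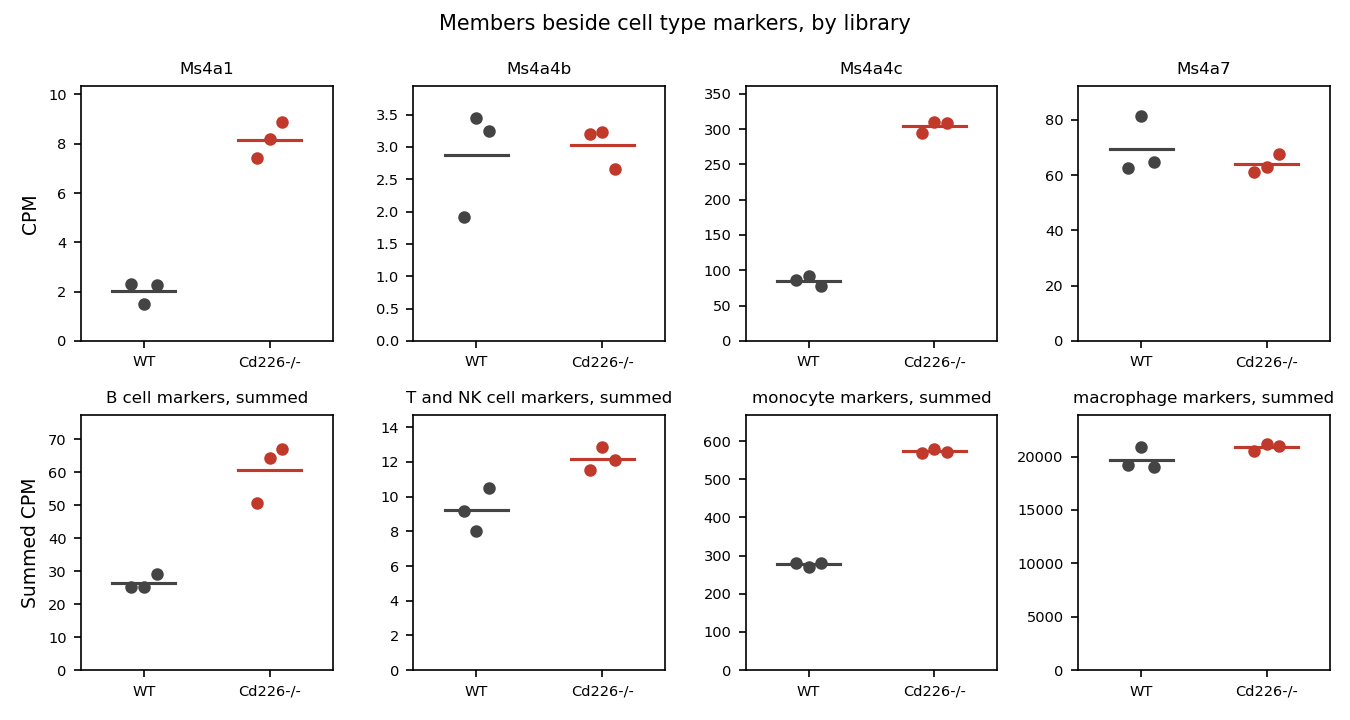
CPM of 4 Ms4a members (top) and the summed CPM of the marker list set beside each (bottom) in each library, WT in grey and Cd226-/- in red, lines at the mean and axes from 0. Ms4a1 and the B-cell list, and Ms4a4c and the monocyte list, are higher in all Cd226-/- libraries. Ms4a4b overlaps between genotypes while the T- and NK-cell list beside it is higher in all Cd226-/- libraries, and Ms4a7 and the macrophage list both overlap. The macrophage sum is mostly Lyz2, which was not called, while of the 12 markers 6 were called higher and 4 lower.

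Per kilobase of merged exons, which allows genes to be compared, the members covered a wide range of levels in WT. Ms4a6d led with 748 ± 23.8 CPM per kb (SD, n = 3), followed by Ms4a6c (296 ± 12.3), Ms4a4a (168 ± 22.2), Ms4a4c (48.8 ± 3.96), Ms4a6b (46.0 ± 4.70), Ms4a7 (15.6 ± 2.30) and Ms4a14 (3.00 ± 0.409). Ms4a4d, Ms4a1 and Ms4a4b were lowest, at 0.444, 0.327 and 0.327 CPM per kb. Ms4a4c and Ms4a6b overlapped in WT, as did the 3 lowest in that order, and all other neighbours in the order were separated in every library. In Cd226-/- the first 6 kept this order, and Ms4a4c (174 ± 4.76 CPM per kb) was now clear of Ms4a6b (53.8 ± 1.86). Ms4a14, at 1.22 ± 0.297, overlapped Ms4a1 at 1.32 ± 0.116, which in turn overlapped Ms4a4d at 1.44 ± 0.0544. With the longest transcript as the length, the order of the first 7 in WT was the same and the 3 lowest changed places.

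RefSeq lists 11 further Ms4a genes in the same cluster, all of which have a row in the table. Only Ms4a8a was expressed well enough to be tested. Counts per library ran 4342, 4226 and 4941 for WT, then 4194, 4013 and 4267 for Cd226-/-, about as many as Ms4a6b, and did not pass (236 ± 11.8 and 234 ± 5.09 CPM (SD, n = 3); log2 fold change -0.0081 ± 0.050 (SE); edgeR adjusted p = 0.921). The direction of so small a value turned in 4 of 13 alternative analyses. Per Ms4a8a count there were 0.351 to 0.374 Ms4a4c counts in WT and 1.28 to 1.33 in Cd226-/-. Ms4a2 had 2 counts in 1 WT library, and 5, 3 and 2 in those lacking Cd226, and Ms4a3 had 1 count in all. Ms4a5, Ms4a10, Ms4a12 and Ms4a13 had no count in any library, which allows up to 3 counts each (0.136 to 0.180 CPM). Ms4a15, Ms4a18, Ms4a19 and Ms4a20, the last 2 listed in the table under Rik names, had at most 7 counts in a library. Of the nearest relatives outside the cluster, Tmem176b rose from 4.02 ± 1.06 to 9.51 ± 1.59 CPM (SD, n = 3; edgeR adjusted p = 2.42e-05), and Tmem176a did not pass (2.68 ± 0.449 and 3.86 ± 0.781 CPM; adjusted p = 0.0915).

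Within the cluster and 500 kb to either side, 23 genes that are not of the family were tested. Of these 4 rose and 4 fell, beside 30.9% called over all tested genes (16.1% higher and 14.8% lower). Their median log2 fold change was 0.02. On the low-coordinate side 0 rose and 4 fell. Inside the cluster 2 rose and 0 fell, and on the high-coordinate side 2 rose and 0 fell. The nearest tested genes are Ccdc86 on the low-coordinate side, which fell (log2 fold change -0.37 ± 0.064 (SE), edgeR adjusted p = 1.10e-04), and Mrpl16, a mitochondrial ribosomal protein gene, on the other, which rose 1.25-fold (adjusted p = 0.0195). Inside the cluster AW112010 rose 1.21-fold (adjusted p = 5.26e-04). BE692007, which lies on the opposite strand within Ms4a6c (11473447 to 11482579), rose 5.94-fold, from 8, 4 and 16 counts to 46, 43 and 65 (adjusted p = 2.01e-05). As the strand setting of the counting is not given in the sources used here, its reads cannot be told apart from those of Ms4a6c. The counts listed for BE692007 were at most 0.00435 of those listed for Ms4a6c. This ratio does not limit how many reads were assigned to the wrong gene or left out.

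**Figure D4:**
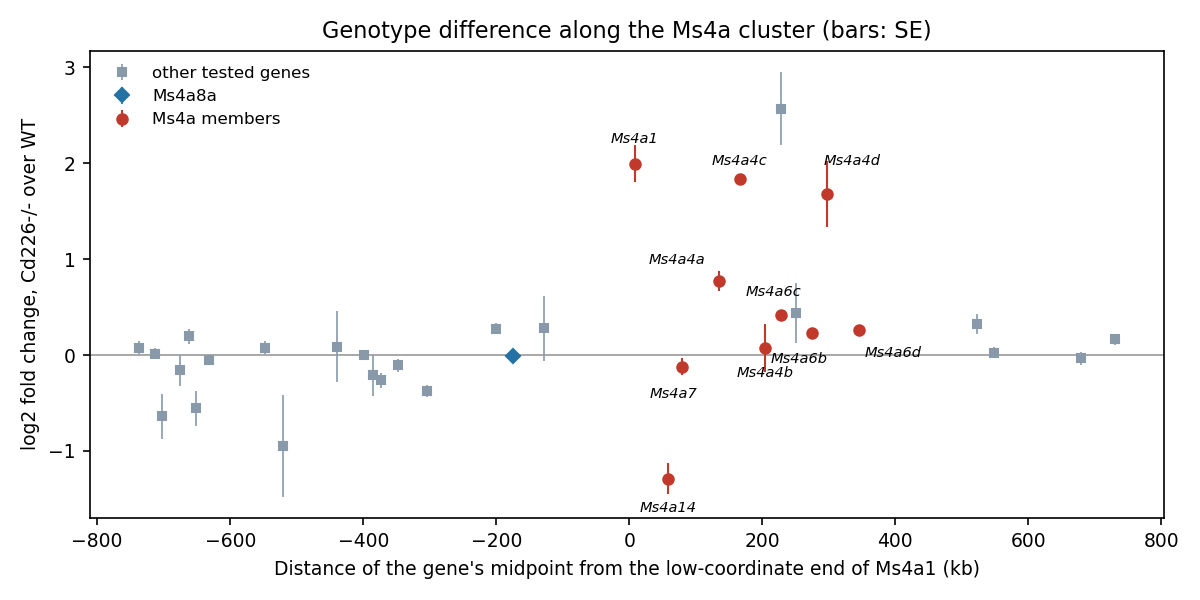
Log2 fold change (Cd226-/- over WT) of each tested gene against the distance of its midpoint from the low-coordinate end of Ms4a1, in kb; red circles are the 10 members, the blue diamond is Ms4a8a, grey squares are other genes and bars are SE. Large rises (Ms4a1, Ms4a4c, Ms4a4d), small changes (Ms4a4b, Ms4a7) and the fall of Ms4a14 are interspersed along the cluster, and the highest grey square is BE692007.

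Reads of close relatives can be assigned to the wrong copy. Of all 50-base words in the longest transcript, 56.9% for Ms4a6c also occur in a transcript of another gene, mainly BE692007 on the opposite strand. The share was 8.48% for Ms4a4c and 4.19% for Ms4a4b, which share words with each other, 3.28% for Ms4a6b, 2.92% for Ms4a6d and 0.546% for Ms4a4d. It was 0.395% for Ms4a7 and 0 for Ms4a1, Ms4a4a and Ms4a14. The read length is not given in the sources used here.

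TREM2 and dectin-1 signalling was examined because earlier work ties both receptors to MS4A proteins. Of its 8 genes 2 rose and 2 fell, beside 16.1% higher and 14.8% lower over all tested genes, so that no direction is read from the count, and the summed level was 1884 to 1943 CPM in WT and 2055 to 2110 in Cd226-/-. Clec7a, encoding dectin-1, fell from 168 ± 23.3 to 109 ± 1.79 CPM (SD, n = 3; edgeR adjusted p = 7.91e-05), while Ms4a4a rose. Trem2, the lipid receptor, fell from 54.2 ± 2.45 to 35.7 ± 4.38 CPM (adjusted p = 5.74e-06). Tyrobp, encoding the TREM2 adaptor DAP12, rose from 284 ± 12.8 to 386 ± 11.8 CPM (adjusted p = 5.23e-07) and Fcer1g, encoding the Fc receptor gamma chain, from 626 ± 4.70 to 816 ± 25.7 CPM (adjusted p = 2.33e-06). Of 13 tetraspanins, another family with 4 membrane spans, 3 rose and 5 fell, among them Cd9 (145 ± 2.65 to 90.5 ± 5.96 CPM; adjusted p = 4.04e-09) and Cd81 (52.4 ± 1.16 to 33.8 ± 2.85 CPM; adjusted p = 5.45e-07). The summed tetraspanin level was 2004 to 2043 CPM in WT and 1827 to 1992 in Cd226-/-.

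Across the 6 libraries the genes most like Ms4a4c, by Pearson's r of log2 CPM over 9542 genes averaging 5 CPM or more, included the pseudogene Rpl23a-ps3 and 4833439L19Rik. For Ms4a1 the 3 most alike were Nupr1, Adcy6 and Qars, for Ms4a14 Prdx6, Pisd and Arg1, and for Ms4a4a Osbpl3, Uqcrb and Rpl4. Such values are common where a gene separates the genotypes: 1153 genes had r above 0.9 with Ms4a4c, 1025 with Ms4a1 and 48 with Ms4a7. Among the members, Ms4a4c had r = 0.988 with Ms4a6d and 0.976 with Ms4a6c, but 0.204 with Ms4a4b. The 6 libraries share the genotype contrast, so these values describe the libraries only.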

How the data were processed

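What the authors deposited is a single table of raw read counts per gene symbol, whole numbers with 1 column per library. The submitters' processing notes name HISAT2 and GRCm38; the aligner's version, the annotation, how reads were assigned to genes and whether strand was used were not given in the sources used here. Columns were matched to libraries by title, 0 were left unused, and 0 rows named no gene. With 16838527 to 21658061 counts per library, 1 count was worth 0.0452 to 0.0599 CPM. Floors cover counting error only.

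The test was the robust quasi-likelihood F-test of edgeR 4.0.16 (R 4.3.3), two-sided, after filterByExpr by genotype and TMM scaling. Genotype was the sole term, p-values were Benjamini-Hochberg adjusted over 13215 genes, and an adjusted p under 0.05 was a call. A standard error here is the log2 fold change divided by the root of F. The steps were tested on simulated data. No 2 libraries of a genotype agreed within counting noise (chi-square over degrees of freedom 2.17 to 7.76, lowest for Cd226-/- replicates 2 and 3), so 6 samples were kept.

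Lengths are merged exons of GENCODE M21, positions and promoters are from RefSeq (GRCm38.p6), and promoters were aligned locally with Biopython 1.88. The members and the 9 gene lists were chosen with earlier results of these data known. The genes named were the members, other Ms4a rows, Tmem176a and Tmem176b, up to 3 called genes of each list by p, the nearest and most clearly called neighbours, the 3 genes most like each member and Cd226; part of these are described, and a few results are not reported here. Clec7a, Ighm, Igkc, Trac, Mcpt8, and the Ms4a genes with no count or listed under Rik names were named outside this rule, after their values were seen. So were Fcer2a, Cr2, Vcan, Chil3, F13a1, S100a8, Lyz2, Gm8369 and Gm5511. Alternatives were DESeq2 1.42.0 size factors and Wald test, limma-voom (limma 3.58.1), scaling by total count, no filter, a mean of at least 5 CPM, a replicate block, each library left out, and the longest transcript as the length.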

Additional observations from a re-analysis of the deposited data

How the results depend on the processing

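The number of members called stayed between 7 and 8 in the 13 alternatives, with 6 to 7 higher and 1 lower. Leaving out each library in turn, log2 fold changes ranged from -0.15 to 0.21 for Ms4a4b, from -0.19 to 0.0029 for Ms4a7 and from -0.049 to 0.023 for Ms4a8a; these 3 changed sign, and none of the 3 was called. At a mean of at least 5 CPM, Ms4a8a was at 0.0034, and Ms4a4b and Ms4a4d were not tested. Of the 8 called members, 7 kept direction and call in every alternative run for them, and Ms4a6b lost its call without WT replicate 1 (0.17) or WT replicate 3 (0.20). The cause was not tested. With the replicate number as a block, 4137 genes and 8 members were called (4086 and 8 without); same-numbered libraries did not deviate together (r = 0.0105, -0.0128 and 0.0151), so the numbers were not taken as pairs. Over all genes, calls ranged from 3263 to 4537. Depth limits Ms4a4d, Ms4a4b and Ms4a1, the members with the fewest counts. Ms4a6c shares the most 50-base words with transcripts of other genes, mainly with BE692007, which lies within it on the opposite strand.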
